A study of Bos taurus with 9 samples.

Results

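The comparison described here set blastocysts from oocytes matured in low glucose medium against blastocysts from oocytes matured in control medium. It uses 6 of the 9 libraries of the series, 3 for each medium, chosen by the treatment given in the labels, with all genes and no selection on measured values. Cumulus-oocyte complexes of cattle (Bos taurus), that is oocytes still enclosed in their nurse cells, were kept for 24 hours in maturation medium with 5.5 mM glucose (control) or 2.75 mM glucose (low glucose). Both media held serum, pyruvate, gentamicin, FSH and estradiol. After fertilisation in vitro, all embryos were cultured in the same media until day 8, so the glucose level differed only during maturation of the oocyte. Each library is poly(A) RNA of a pool of whole blastocysts, with 10, 10 and 11 embryos in the control pools and 9, 11 and 9 in the low glucose pools. The pools mix the cell types and the sexes of the embryos, and the labels do not say that they came from separate cultures. The p-values therefore measure only the spread between these pools, which may be technical. The remaining 3 libraries came from low glucose medium with a supplement of 1.8 mM BHB. They entered the choice of tested genes, the scaling and the estimate of spread, but not the 2 means compared.

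A blastocyst consists of an outer epithelium, the trophectoderm, that will form the placenta, and an inner cell mass that divides into epiblast and hypoblast. In ruminants the trophectoderm secretes interferon tau, the signal by which the mother recognises the pregnancy. Type I interferons bind a receptor pair, the kinases JAK1 and TYK2 pass the signal on, and transcription factors that include STAT2 and IRF9 carry it to the nucleus, where antiviral genes are switched on. Fibrillar collagens, small proteoglycans and the enzymes that fold and crosslink collagen are typical of mesenchymal cells, and vimentin and N-cadherin mark the same state in the cytoskeleton and at cell contacts.

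The libraries held 55611205 to 73183334 estimated counts each, and levels below are CPM, that is counts scaled to the size of the library, here with TMM factors. Pools of a group correlated at 0.951 to 0.976 in log2 CPM and pools of different groups at 0.932 to 0.970, so the 2 ranges overlapped. Markers of the blastocyst were plainly present in each library. The 6 trophectoderm markers (KRT8, KRT18, CDX2, GATA2, GATA3, TFAP2C) summed to 12834 to 17583 CPM in control and 15391 to 17895 CPM in low glucose, and none of them passed the test. POU5F1 and NANOG, 2 of 3 markers set for the epiblast, summed to 922 to 1055 CPM in control and 936 to 1150 CPM in low glucose. Most of each sum was POU5F1, with NANOG at 33.6 to 70.6 CPM, and whether POU5F1 was confined to the epiblast was not tested. The remaining marker, SOX2, had no entry under that symbol. Markers of leukocytes, sperm and oocytes were low. The 5 leukocyte markers summed to at most 3.93 CPM, the 4 sperm markers to at most 2.93 CPM with ODF1 at 0 in all 6 libraries, and the 6 oocyte markers to at most 7.71 CPM. The 5 endothelial markers summed to 98.6 to 132 CPM, nearly all from PECAM1 and VWF, with CDH5 at 0 throughout. Sums for markers of follicle cells were not low, but a few genes carried them. The 11 for cumulus and granulosa summed to 78.3 to 132 CPM, mostly from HSD3B1, CYP19A1 and STAR. In that set TNFAIP6 was at most 0.613 CPM and INHA at most 1.11 CPM. The 9 for stroma, theca and smooth muscle summed to 113 to 526 CPM, mostly from COL1A1 and ACTA2.

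**Figure D1:**
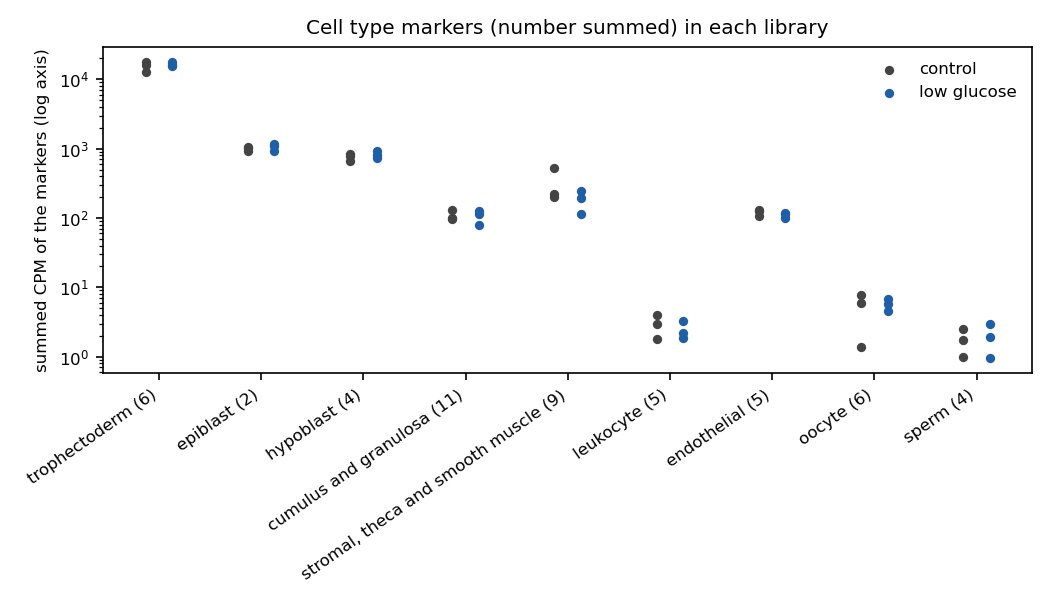
Summed CPM of cell type markers (log axis) in each of the 3 control and 3 low glucose libraries, with the number of markers summed in brackets; each point is 1 library. The groups overlap for each of the 9 cell types, and control replicate 1 stands highest for stromal, theca and smooth muscle markers at 526 CPM.

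Low glucose blastocysts held less of many transcripts and more of 1. In edgeR's quasi-likelihood test with Benjamini-Hochberg adjustment, 333 of 16469 tested genes, or 2.02%, were lower at an adjusted p under 0.05, and 1 gene, C1R, or 0.00607%, was higher. At an unadjusted p under 0.05, 1043 genes lay lower and 164 higher. The genes that fell did so by a wide margin: the median log2 fold change was -2.15, or 4.43-fold, 307 fell more than 2-fold, 183 more than 4-fold and 52 more than 8-fold. In none of the 333 did the 3 low glucose libraries overlap the 3 control libraries. Over all tested genes, the low glucose libraries were all lower than the control libraries for 8.85% and all higher for 4.31%. The median of all tested genes was 0.02 on the log2 scale with quartiles at -0.20 and 0.15, so most tested genes lay close to 0.

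The genes that fell were not the abundant transcripts of the blastocyst. Their control level had a median of 13.2 CPM, close to the 11.7 CPM of all tested genes, and it reached at most 321 CPM. With the tested genes divided into 4 equal groups by control level, 5 of 4118 fell in the lowest group, 153 of 4117 in the next (1.59 to 11.7 CPM), 120 of 4117 in the third (up to 45.7 CPM) and 55 of 4117 in the highest. Of the 1997 genes above 100 CPM in control, 22 fell. Summed over the 333 genes, which were chosen for being lower, control libraries held 10564, 8813 and 9858 CPM and low glucose libraries 3302, 2969 and 2839 CPM. Single libraries weigh on the count: leaving out control replicate 3 gave 194 lower genes and leaving out low glucose replicate 2 gave 197, and 159 of the 333 genes kept their call when any 1 of the 6 libraries was left out, while 28 lost it in each of those fits. Genes named below as lower are among the 159 unless another statement stands beside them.

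**Figure D2:**
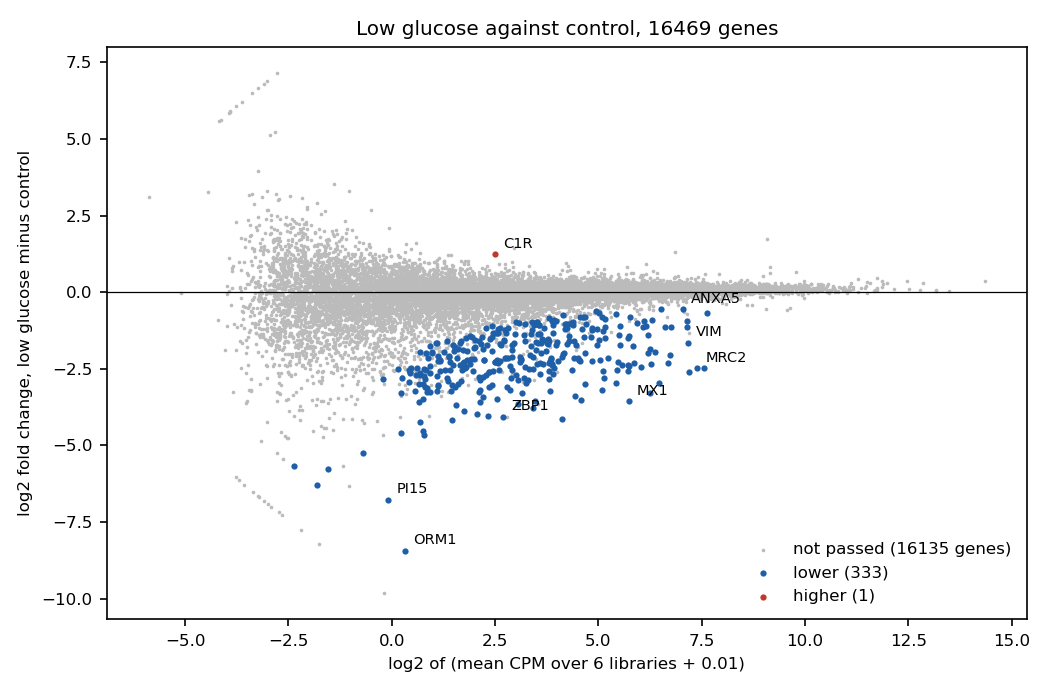
Log2 fold change, low glucose minus control, against the log2 of the mean CPM over the 6 libraries (plus 0.01) for the 16469 tested genes; blue points are the 333 lower genes, the red point is C1R and grey points did not pass. The called genes lie almost all below 0 and between low and middle levels, while the most abundant genes lie close to 0.

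The lowest p-value belonged to MRC2, which encodes an endocytic receptor for collagen. It stood at 360, 235 and 260 CPM in the control pools and at 49.5, 50.9 and 52.3 CPM in the low glucose pools. The low glucose pools lay within a few CPM of each other and far below each control pool, which gave -2.49 on the log2 scale (SE 0.165, edgeR adjusted p = 5.58e-05). TSC22D1, a transcriptional regulator induced by TGF-beta, was at 148, 98.2 and 106 CPM against 30.0, 28.9 and 29.5 CPM (-1.99, edgeR adjusted p = 0.000142). IGFBP7, a secreted protein of the insulin-like growth factor binding family, was at 172, 131 and 207 CPM against 43.4, 41.2 and 39.8 CPM. In each of these genes the lowest control pool held more than 3 times the highest low glucose pool. Among less abundant genes, NR2F1, an orphan nuclear receptor (COUP-TFI), was at 8.25, 7.71 and 8.18 CPM against 1.22, 1.41 and 0.882 CPM. CD276, an immune checkpoint molecule, was at 17.1, 17.5 and 19.1 CPM against 5.59, 4.32 and 4.48 CPM. SLCO3A1, an organic anion transporter, was at 8.05, 8.21 and 8.90 CPM against 1.59, 0.999 and 1.25 CPM. All 10 genes of smallest p, which also include FAM78A, PEG10, BMPR1B and MX1, were lower by 1.90 or more on the log2 scale.

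**Figure D3:**
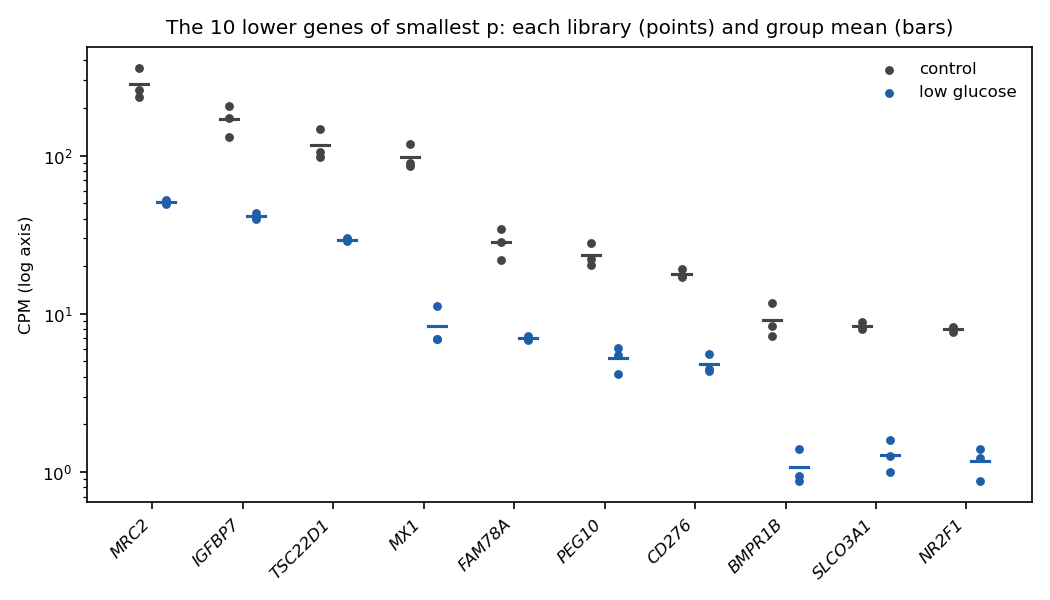
CPM (log axis) in each library for the 10 lower genes of smallest p; points are single libraries, bars are group means, grey is control and blue is low glucose. In each gene the 3 low glucose libraries lie below the 3 control libraries, as in all 333 lower genes, with MRC2 at 49.5 to 52.3 against 235 to 360 CPM.

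The most abundant genes that fell included matrix-binding and secreted proteins as well as intermediate filaments. IGFBP5, which binds insulin-like growth factors and matrix, was at 232, 331 and 400 CPM in control and at 54.0, 70.6 and 50.4 CPM in low glucose (log2 fold change -2.46, edgeR adjusted p = 0.00202). THBS2, the matricellular glycoprotein thrombospondin 2, was at 259, 283 and 208 CPM against 72.4, 25.3 and 24.3 CPM. In both genes the groups were separated by more than 100 CPM. Smaller falls at this level were those of SERPINE2, an inhibitor of plasmin-generating proteases (281, 192 and 260 against 183, 144 and 133 CPM, log2 fold change -0.67), and NES, an intermediate filament protein (238, 151 and 167 against 122, 80.9 and 87.3 CPM, -0.94). Both are less firm. SERPINE2 lost its call without control replicate 1 (-0.56) or 3 (-0.61) or low glucose replicate 2 (-0.62) or 3 (-0.58), with RLE factors (-0.67) and in a fit of only the 6 libraries (-0.67), and NES lost it without control replicate 1 (-0.72) or 3 (-0.99) or low glucose replicate 2 (-0.81) or 3 (-0.87).

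At the other end stood genes that were nearly absent from the low glucose pools. PI15, a secreted protease inhibitor, had 361 counts in the control pools together and 3 in the low glucose pools, a ratio of 118 (exact 95% counting interval 40.2 to 577). LSAMP, a cell adhesion molecule of neurons, was at 2.02, 4.42 and 3.18 CPM against 0.290, 0.0844 and 0.0339 CPM, and RTP4, an interferon-induced transporter chaperone, at 4.13, 3.65 and 2.05 CPM against 0.0153, 0.211 and 0.153 CPM. ORM1, an acute phase plasma protein, was uneven among the controls, with 5.48, 0.446 and 1.46 CPM against 0, 0 and 0.0170 CPM, a ratio of 449 (80.2 to 17773). It did not pass in limma-voom (fitted value -7.02, which depends on the prior count). Counting intervals cover counting error only.

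Interferon-induced genes held the largest share of falls among 52 lists of related genes. Of 52 tested interferon effectors, 23, or 44.2%, were lower, against 2.02% of all tested genes, and none was higher. The list median was -1.77 against 0.02 for all genes. In 36 of the 52 the groups did not overlap, with low glucose lower, against 8.85% of all tested genes. Summed over the list, the control libraries held 1545, 1590 and 1544 CPM and the low glucose libraries 722, 768 and 837 CPM. MX1, an antiviral GTPase, was at 119, 86.1 and 89.7 CPM against 6.98, 11.2 and 6.94 CPM. ISG15, a ubiquitin-like protein, was at 42.5, 43.5 and 50.5 CPM against 3.48, 9.68 and 3.83 CPM (log2 fold change -3.0, edgeR adjusted p = 0.00842). The groups lay far apart in both genes, and low glucose replicate 2 was the highest of its group in both. IFIT5, which binds viral RNA, was at 27.0, 17.4 and 16.8 CPM against 1.24, 2.29 and 1.70 CPM, and IFI27, a mitochondrial interferon-induced protein, at 137, 147 and 184 CPM against 18.3, 27.6 and 13.4 CPM.

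Fold changes ranged widely within this list, as a few genes chosen after their values were seen show. IFIT1, an RNA-binding effector, was at 38.6, 30.6 and 30.3 CPM against 0.626, 2.62 and 2.36 CPM, and UBA7, which activates ISG15 for conjugation, at 18.7, 13.9 and 15.6 CPM against 0.626, 2.28 and 1.99 CPM. LGALS3BP, a secreted glycoprotein, was at 136, 162 and 152 CPM against 68.3, 55.9 and 78.7 CPM, a smaller fall of 1.15 on the log2 scale. IFITM3 sits on 2 gene identifiers, of which 1 fell (-1.01) and the other stood at 0.10 with overlapping groups. SHISA5, the most abundant member, stood at 156, 161 and 155 CPM against 164, 143 and 203 CPM and did not pass (0.11, 95% interval -0.17 to 0.39). Near-identical copies in the MX, IFIT, OAS1, IFI44 and IFITM families share reads by estimation, so single members are uncertain.

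Among the genes that sense nucleic acids and carry the interferon signal, RNA sensors and some signalling genes fell, while most others did not pass. Of 33 tested, 9, or 27.3%, were lower, against 2.02% of all tested genes. None was higher, and the list median was -0.07. DDX58 (RIG-I) was at 22.2, 20.5 and 16.9 CPM against 3.08, 4.70 and 4.12 CPM, DHX58 (LGP2) at 10.9, 10.2 and 9.45 CPM against 1.76, 2.03 and 2.60 CPM, and IFIH1 (MDA5) at 13.2, 8.78 and 6.75 CPM against 1.71, 1.17 and 0.611 CPM. ZBP1, a sensor of left-handed nucleic acid, was at 12.4, 11.9 and 12.2 CPM against 0.458, 1.25 and 0.458 CPM (-4.06, edgeR adjusted p = 0.00262). In each of these sensors the lowest control pool held more than 3 times the highest low glucose pool. The adaptor MAVS, to which RIG-I and MDA5 signal, did not pass, at -0.08 (95% interval -0.46 to 0.30).

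Each receptor pair had 1 chain that fell and 1 that did not pass. IFNAR2, a chain of the type I interferon receptor, was at 2.47, 2.51 and 2.01 CPM against 0.458, 0.352 and 0.441 CPM, whereas its partner IFNAR1 stood at 17.4, 19.9 and 15 CPM against 15.9, 20.7 and 14.5 CPM (-0.03, 95% interval -0.45 to 0.39). IFNGR2, of the interferon gamma receptor, was at 7.70, 4.38 and 6.61 CPM against 1.88, 0.873 and 0.933 CPM, and IFNGR1 stood at 0.26 (95% interval -0.27 to 0.80). JAK1 stood at -0.05 (-0.28 to 0.19) and TYK2 at 0.06 (-0.30 to 0.41). Of the transcription factors, IRF9 was at 16.6, 15.6 and 15.8 CPM against 6.55, 7.05 and 9.09 CPM (-1.08, edgeR adjusted p = 0.00861). STAT2, at 27.4, 29.5 and 30.6 CPM against 28.0, 29.3 and 27.9 CPM, and IRF7, at 63.1, 68.1 and 69.0 CPM against 71.6, 60.3 and 66.8 CPM, overlapped between the groups, with 95% intervals of -0.31 to 0.23 and -0.32 to 0.30. Differences between these genes in their response were not tested. IRF9 lost its call without low glucose replicate 2 (-1.02), and IFNAR2 without control replicate 2 or low glucose replicate 2, with fits that left out a library between -2.56 and -2.36. The receptor chains, JAK1, TYK2, IFIH1 and MAVS were named after their values were seen.

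**Figure D4:**
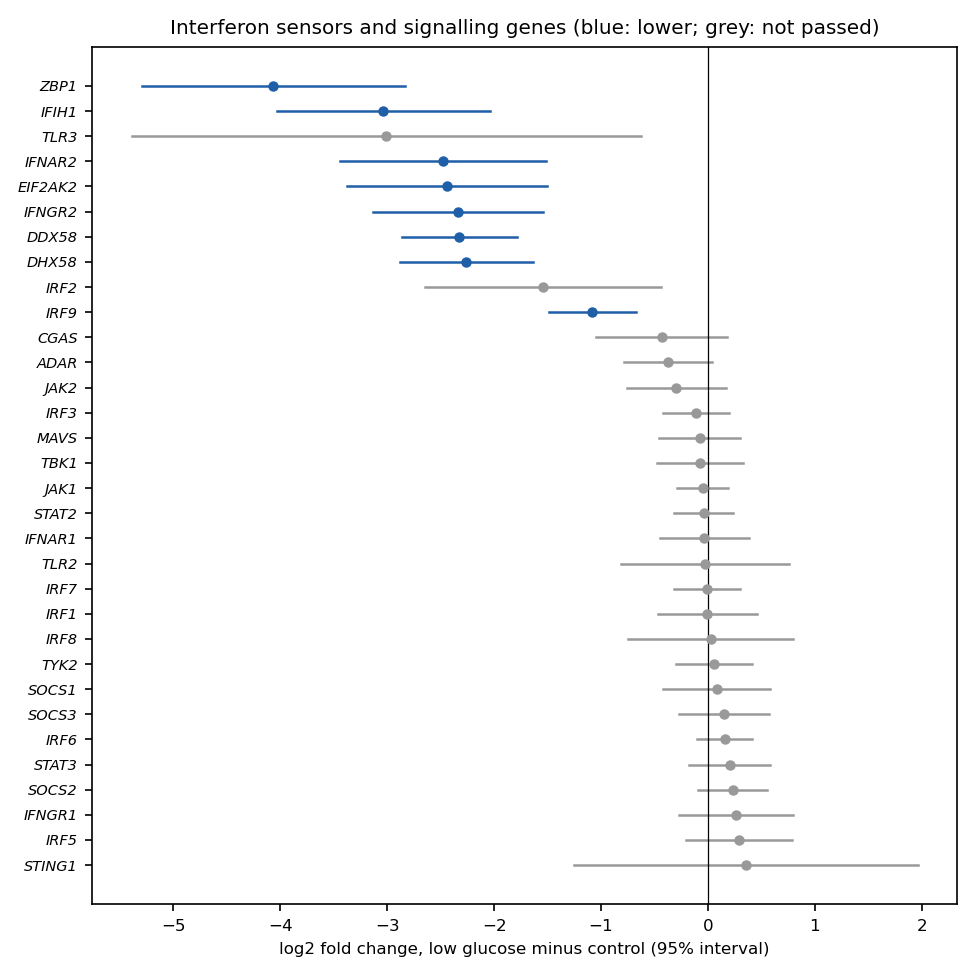
Log2 fold change, low glucose minus control, with its 95% interval for 32 of the 33 tested nucleic acid sensors and interferon signalling genes; blue genes were lower and grey genes did not pass. ZBP1 lies lowest at -4.06, and STAT2, IRF7, JAK1 and IFNAR1 lie near 0 with narrow intervals.

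The interferon tau gene IFNT2 was low in both groups, at 1.60, 2.56 and 3.23 CPM against 1.51, 3.21 and 2.65 CPM, and its 95% interval was wide, from -1.37 to 1.36. Reads shared with other interferon tau copies make this value uncertain. Of the genes of antigen presentation by MHC class I, 1 of 22 tested fell, or 4.5%. It was TAPBP, which loads peptide onto class I molecules, at 50.2, 53.2 and 44.0 CPM against 20.4, 18.4 and 23.0 CPM. Of 38 cytokine, chemokine and receptor genes 1 fell, the tumour necrosis factor receptor TNFRSF1A, at 23.8, 14.2 and 13.6 CPM against 3.63, 4.11 and 4.29 CPM. A share of 2.63% for that list is near the 2.02% of all genes.

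The plot of all 52 lists shows where the falls lay. Shares over 20% were found for interferon effectors, interferon signalling, collagen folding, stromal markers, proteoglycans, cumulus markers and the coagulation and plasminogen system, and 11 lists had no member that fell. A list's share is a description, since no test of the lists was made and the lists differ in how abundant their genes are.

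**Figure D5:**
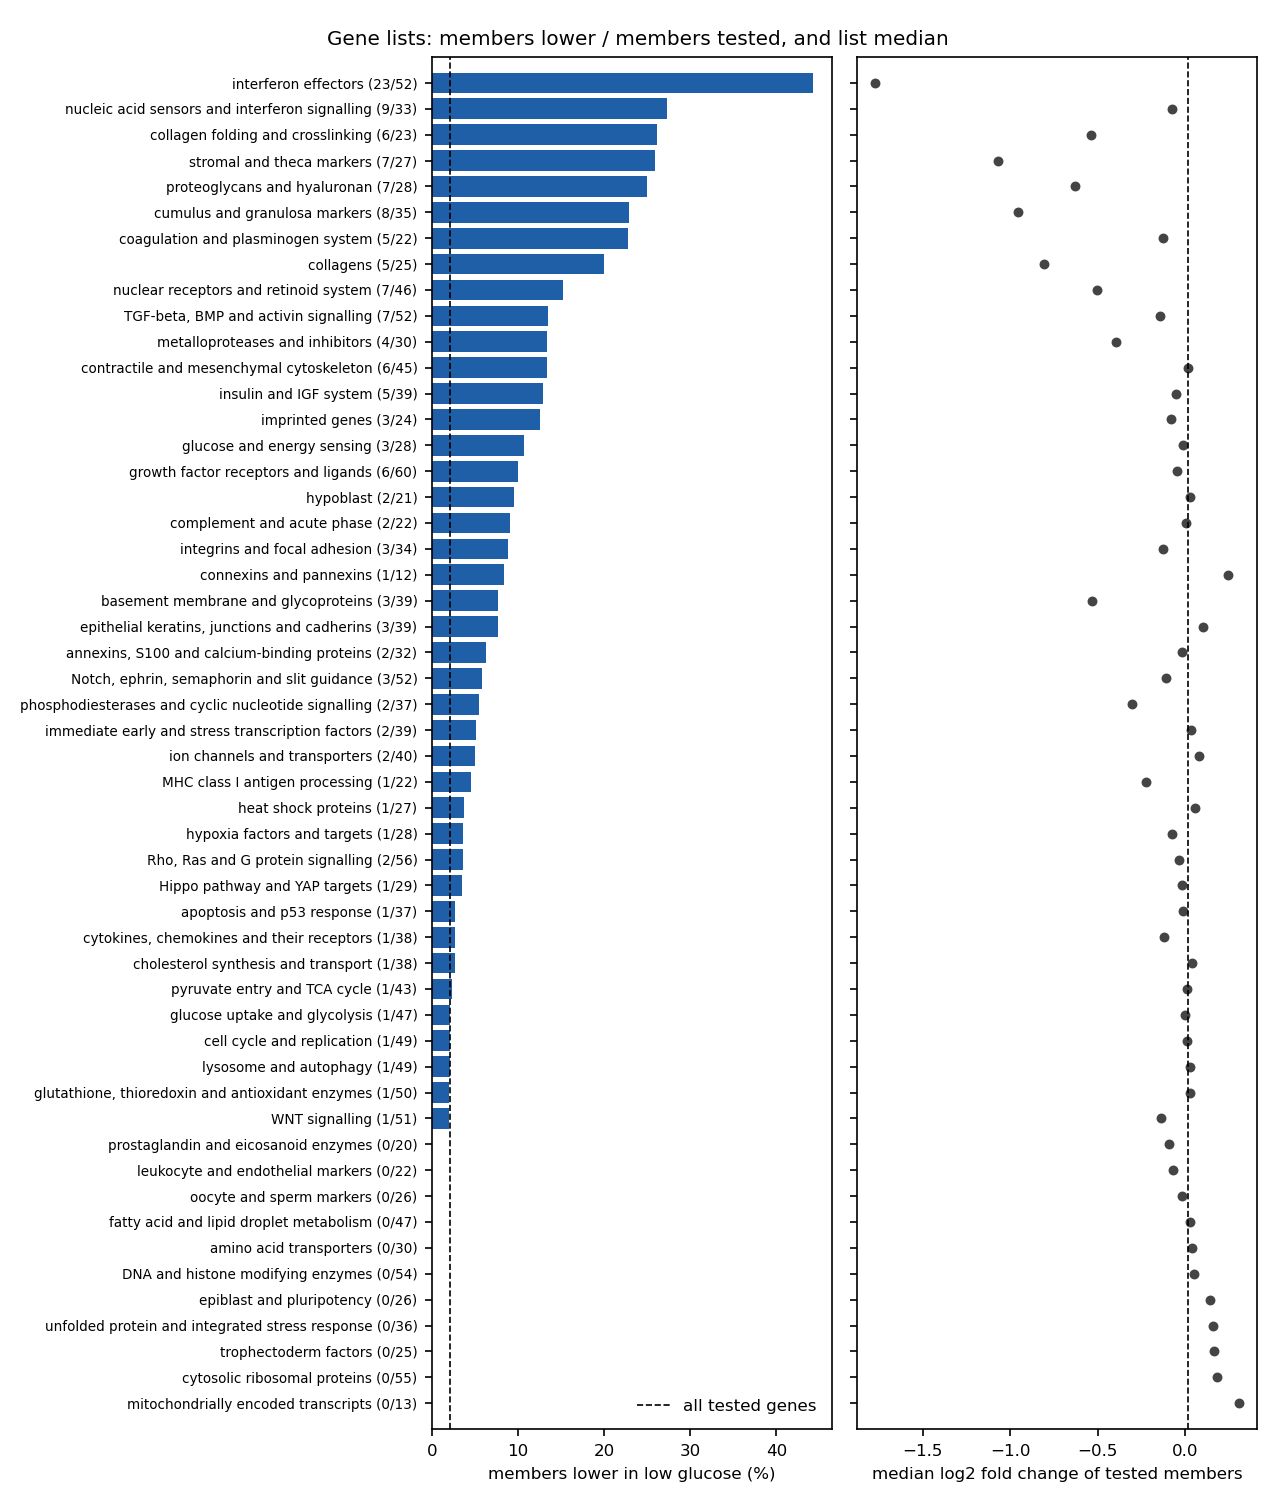
For each of the 52 gene lists, the share of tested members that were lower in low glucose (bars, with members lower over members tested in the label) and the median log2 fold change of the tested members (points); dashed lines mark 2.02% and 0.02, the values for all tested genes. Interferon effectors lead at 44.2% and -1.77, and ribosomal and mitochondrially encoded transcripts lie to the right of the line with no member called.

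Genes that build fibrillar matrix fell at several steps from chaperone to fibril. Of 25 tested collagen genes, 5, or 20.0%, were lower, against 2.02% of all tested genes, with a list median of -0.81. COL5A1, a fibril-nucleating collagen chain, was at 86.0, 70.0 and 74.0 CPM against 16.9, 5.83 and 6.68 CPM, and its partner chain COL5A2 at 28.2, 18 and 17.5 CPM against 6.72, 2.12 and 3.65 CPM. Low glucose replicate 1 was the highest of its group in both. The main chain gene COL1A2 lay just outside the threshold, at 310, 161 and 163 CPM against 105, 71.0 and 75.5 CPM (-1.34, edgeR adjusted p = 0.0511), and COL4A1, of basement membranes, stood at 412, 423 and 387 CPM against 364, 474 and 450 CPM (0.08, 95% interval -0.31 to 0.46). The count of lower collagens was 2 when control replicate 1 or low glucose replicate 2 was left out and 3 when low glucose replicate 3 was.

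Several enzymes and chaperones of collagen fell too. Of 23 tested, 6, or 26.1%, were lower, against 2.02% of all tested genes. The median was -0.54, and the count was 6 whichever library was left out. SERPINH1 (HSP47), the collagen chaperone, was at 113, 97.1 and 111 CPM against 39.6, 39.6 and 43.7 CPM (-1.39, edgeR adjusted p = 0.00110). FKBP10, a prolyl isomerase of collagen, was at 21.9, 17.2 and 22.2 CPM against 6.90, 5.88 and 6.45 CPM. PLOD2, which hydroxylates the lysines used for crosslinks, was at 86.7, 90.5 and 112 CPM against 27.5, 19 and 12.3 CPM. BMP1, the protease that removes the collagen C-propeptide, was at 26.6, 15.4 and 15.7 CPM against 3.70, 4.57 and 3.15 CPM. P4HB, a general disulfide isomerase that is also a subunit of prolyl hydroxylase, did not pass, at 632, 731 and 812 CPM against 790, 843 and 716 CPM (0.11, 95% interval -0.23 to 0.45).

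Of 28 proteoglycan and hyaluronan genes, 7 were lower, with a median of -0.63. Lumican (LUM), which spaces collagen fibrils, was at 204, 125 and 88.0 CPM against 23.8, 13.8 and 5.34 CPM, and CD44, the hyaluronan receptor, at 5.50, 12.4 and 10.9 CPM against 2.63, 1.83 and 1.71 CPM. The syndecan SDC2, a cell surface heparan sulfate carrier, fell less, from 13.1, 16.1 and 15.6 CPM to 7.32, 7.76 and 6.96 CPM (-1.02). HSPG2 (perlecan), a proteoglycan of basement membranes, stood at 354, 263 and 302 CPM against 241, 249 and 216 CPM and did not pass (-0.38, 95% interval -0.65 to -0.11). Among 39 glycoprotein and basement membrane genes, 3, or 7.69%, were lower, led by FBN1 (fibrillin 1) at 60.3, 24.1 and 29.4 CPM against 8.32, 7.26 and 8.89 CPM. Fibronectin (FN1), the most abundant of them, lay higher in each low glucose pool, at 4743, 5308 and 4748 CPM against 6283, 6612 and 6055 CPM, but did not pass (0.36, 95% interval 0.07 to 0.65, edgeR adjusted p = 0.397).

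Receptors and proteases of the matrix fell in smaller numbers. Of 34 integrin and focal adhesion genes 3, or 8.82%, were lower, against 2.02% of all tested genes. ITGAV, the alpha chain of vitronectin receptors, led them at 136, 93.5 and 132 CPM against 35, 37.6 and 26.3 CPM. Of 30 metalloprotease and inhibitor genes 4, or 13.3%, were lower, none of which kept its call in all 6 fits that left out a library. MMP2 (gelatinase A) was at 80.9, 21.4 and 74.2 CPM against 7.09, 10.1 and 12.8 CPM. Its call held only without control replicate 2, the other 5 fits gave -2.26 to -2.77, and it did not pass in limma-voom (-2.37). The coagulation and plasminogen list had 5 of 22 lower, or 22.7%. PLAT, the tissue plasminogen activator, was at 175, 174 and 162 CPM against 62.0, 30.3 and 11.5 CPM and THBS1 (thrombospondin 1) at 149, 148 and 92.9 CPM against 41.3, 11.5 and 23.8 CPM. PLAT lost its call without any 1 control replicate (-2.28, -2.28 and -2.32) or low glucose replicate 2 (-2.21), and THBS1 without low glucose replicate 3 (-2.30). That list's count was 3 without control replicate 1 or 2 and 2 without control replicate 3 or low glucose replicate 2 or 3.

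In the cytoskeleton and at cell contacts, vimentin and the cadherins CDH2 and CDH11 fell, while most members of the cytoskeletal and epithelial lists did not pass. Vimentin (VIM) was at 278, 164 and 212 CPM against 73.5, 53 and 83.0 CPM (-1.64, edgeR adjusted p = 0.00348). N-cadherin (CDH2) was at 67.6, 69.3 and 84.1 CPM against 15.8, 18.8 and 11.5 CPM, and CDH11, a cadherin of mesenchyme, at 35.1, 15.6 and 21.6 CPM against 3.85, 3.05 and 5.22 CPM. The groups did not overlap in any of these genes, which holds for all 333 lower genes. PDLIM3, a PDZ-LIM protein of actin filaments, was at 10.5, 10.2 and 11.6 CPM against 2.29, 0.281 and 0.339 CPM. In all, 6 of 45 contractile and mesenchymal cytoskeleton genes, or 13.3%, were lower, against 2.02% of all tested genes. The list median was 0.02, and MYH9, nonmuscle myosin, stood at 0.06 (95% interval -0.24 to 0.36). Of 39 epithelial genes 3, or 7.69%, were lower, 2 of them these cadherins, and the list median was 0.10. Keratins KRT8 and KRT18 stood at 0.05 (-0.21 to 0.32) and 0.11 (-0.22 to 0.44). Of 12 connexin and pannexin genes 1 fell, or 8.33%. It was GJA1 (connexin 43), at 33.4, 35.7 and 48.0 CPM against 11.4, 8.00 and 5.26 CPM.

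Among signalling genes, falls lay on ligands, receptors and binding proteins alike. PDGFC, a platelet-derived growth factor, was at 29.2, 18.3 and 29.3 CPM against 2.44, 3.18 and 2.49 CPM (-3.24, edgeR adjusted p = 0.00178). PDGFRB, the beta receptor for this family of factors, was at 14.4, 11.6 and 16.9 CPM against 3.62, 1.93 and 3.65 CPM. The alpha receptor PDGFRA did not pass, at 149, 154 and 129 CPM against 160, 177 and 134 CPM (0.12, 95% interval -0.21 to 0.46). AXL, a receptor tyrosine kinase, was at 28.6, 17.9 and 31.1 CPM against 6.15, 3.84 and 3.85 CPM, and ERBB2, the most abundant of the growth factor list, stood at 0.18 (95% interval -0.08 to 0.44). The list had 6 of 60 genes lower, or 10.0% against 2.02% of all tested genes, and a median of -0.05.

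Of 52 genes of TGF-beta, BMP and activin signalling, 7, or 13.5%, were lower, with a list median of -0.15. BMP2, a ligand, was at 41.0, 51.4 and 52.2 CPM against 18, 15.4 and 10.8 CPM, and ID3, an early target of BMP signals, at 10.0, 4.85 and 8.28 CPM against 1.33, 2.07 and 1.58 CPM. FSTL1, a follistatin-related secreted protein, was at 41.5, 27.9 and 26.2 CPM against 14.2, 8.47 and 8.77 CPM. BMPR1B, a BMP receptor counted among granulosa genes here, was at 11.7, 7.29 and 8.41 CPM against 1.39, 0.873 and 0.95 CPM (-3.09, edgeR adjusted p = 0.000728). Of 51 WNT genes 1 fell, or 1.96%, near the 2.02% of all tested genes. It was the receptor ROR2 (7.55, 3.57 and 4.44 against 0.657, 0.549 and 0.611 CPM), and CTNNB1 (beta-catenin) stood at -0.04 (95% interval -0.30 to 0.23). In the Notch and guidance list 3 of 52 fell, or 5.77%, among them NOTCH2, a receptor, at 28.6, 27.1 and 27.6 CPM against 11.6, 14.9 and 13.8 CPM.

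The insulin and IGF list had 5 of 39 genes lower, or 12.8% against 2.02% of all tested genes, and a median of -0.05. Besides the binding proteins IGFBP5 and IGFBP7, FOXO1, a transcription factor held out of the nucleus by insulin signals, was at 21.2, 8.39 and 14.4 CPM against 1.44, 2.17 and 2.41 CPM (-2.87, edgeR adjusted p = 0.00165). IGFBP2, the most abundant member, lay higher in each low glucose pool at 1213, 1247 and 1004 CPM against 1305, 1290 and 1538 CPM but did not pass (0.25, 95% interval -0.06 to 0.56). The count was 3 without any 1 control replicate or without low glucose replicate 2 or 3.

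Nuclear receptors and the retinoid system had 7 of 46 genes lower, or 15.2% against 2.02% of all tested genes, with a median of -0.50. STRA6, the membrane receptor that takes up vitamin A from its plasma carrier, was at 64.8, 41.9 and 55.4 CPM against 17.9, 10.7 and 6.17 CPM. NR5A1 (SF1) and NR5A2 (LRH1), orphan receptors that drive steroid-producing genes, were at 7.14, 6.69 and 8.78 CPM against 1.21, 1.24 and 0.865 CPM and at 13.3, 10.7 and 10.3 CPM against 3.25, 3.29 and 3.92 CPM, respectively. The groups were separate in these genes, as in all 333 lower genes. NR1H2 (LXR beta), the most abundant member, stood at 0.08 (95% interval -0.21 to 0.38). STRA6 lost its call without control replicate 1 (-2.07) or low glucose replicate 2 (-2.15). The count was 3 when control replicate 1 was left out and 4 when any 1 low glucose replicate was.

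The transcription factors that define the blastocyst's lineages did not pass, with 1 exception in the hypoblast. No gene of 25 trophectoderm factors or of 26 epiblast genes passed, with medians of 0.17 and 0.15. Over all tested genes 2.02% were lower, so a list of this size can hold no call without differing from other genes. CDX2 stood at 88.6, 145 and 162 CPM against 128, 169 and 166 CPM (0.23, 95% interval -0.23 to 0.68), and NANOG at 33.6, 55.0 and 48.5 CPM against 33.8, 70.6 and 48.9 CPM (0.16, -0.61 to 0.93). Of 21 hypoblast genes 2, or 9.52%, were lower. They were BMP2 and the transcription factor GATA4, which was at 36.2, 40.0 and 48.7 CPM against 12.3, 19.4 and 14 CPM (-1.45, edgeR adjusted p = 0.00802). GATA6, which acts earlier in the same lineage, stood at 467, 580 and 647 CPM against 550, 592 and 758 CPM (0.17, -0.16 to 0.49).

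Some genes listed for cells that surround the oocyte or line the follicle were lower, and some of them are also counted in the matrix lists. Of 35 cumulus and granulosa genes 8, or 22.9%, were lower, with a median of -0.95. Of 27 stromal and theca genes 7, or 25.9%, were lower, with a median of -1.07. Over all tested genes the share was 2.02%. Those that fell, such as LUM, DCN, BMPR1B, NR5A1, PDGFRB and ZEB2, are matrix, receptor and transcription factor genes, and ZEB2 was counted on 2 identifiers. LUM is in the proteoglycan, cumulus and stromal lists and DCN in the proteoglycan and stromal lists. Their falls are therefore the same results counted again. The 11 defining cumulus and granulosa markers, among them the aromatase gene CYP19A1 and the FSH receptor FSHR, had none that passed, and their sum was 96.4, 132 and 99.9 CPM in control and 126, 115 and 78.3 CPM in low glucose. HSD3B1 made the largest single part of that sum in each library. CYP19A1 stood at 17.1, 28.6 and 17.9 CPM against 20.7, 19.3 and 18.4 CPM, and INHA was at 0 in the low glucose pools and at most 1.11 CPM in control. FOXL2, at 4.13, 2.26 and 2.90 CPM against 1.53, 1.44 and 1.15 CPM (-1.17), lay lower without overlap. So did AMH, at 1.445, 0.739 and 1.17 CPM against 0.7025, 0.493 and 0.373 CPM (-1.09). The other markers of this set overlapped between the groups. The 9 defining stromal, theca and smooth muscle markers summed to 526, 202 and 222 CPM against 244, 113 and 196 CPM. Most of each sum came from COL1A1 and ACTA2, and the sums overlapped. Of the 8 that were tested 1 fell, PDGFRB. COL3A1, at 45.7, 34.1 and 24.5 CPM against 18.05, 4.56 and 5.445 CPM (-1.89, edgeR adjusted p = 0.057), lay lower without overlap but did not pass. The same held for THY1, at 9.61, 7.15 and 4.92 CPM against 4.09, 2.59 and 3.66 CPM (-1.07). The other tested markers of this set overlapped. In control replicate 1, which had the highest stromal sum, COL1A1 stood at 323 CPM, against 106 and 101 CPM in the other controls. The part of these cells in the falls of matrix genes was not tested, and in pools of whole embryos fewer cells of a type and less RNA per cell cannot be told apart. Without low glucose replicate 3 the cumulus count was 5, and without control replicate 1 or 3 or low glucose replicate 2 the stromal count was 4.

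Genes that take up and burn glucose were nearly all outside the test's calls. Of 47 genes of glucose uptake and glycolysis 1 was lower, 2.13% against 2.02% of all genes, and the median was 0.00. That gene was PYGL, a glycogen phosphorylase, at 48.0, 25.1 and 38.0 CPM against 10.6, 9.08 and 5.36 CPM (-2.15, edgeR adjusted p = 0.00271). The glucose transporter SLC2A1 stood at 467, 562 and 554 CPM against 578, 534 and 602 CPM (95% interval -0.12 to 0.35). SLC2A3, another glucose transporter, was at 3643 CPM in low glucose replicate 1 and between 1692 and 2093 CPM in the other 5 libraries. Hexokinase 2 (HK2) lay higher in each low glucose pool, at 194, 202 and 204 CPM against 241, 226 and 228 CPM, without passing (0.21, -0.04 to 0.46), and LDHA stood at -0.08 (-0.36 to 0.20).

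Energy sensing had a share of lower genes above that of all tested genes, while metabolism beyond glycolysis gave few calls. Of 28 energy sensing genes 3, or 10.7% against 2.02% of all tested genes, were lower, namely FOXO1, PRKAG2 and ARRDC4. PRKAG2, a regulatory subunit of the kinase AMPK, was at 10.7, 11.5 and 15.2 CPM against 6.67, 6.5 and 5.24 CPM, but its call held only without control replicate 1, with the other 5 fits at -0.84 to -1.08. ARRDC4, an arrestin-like relative of TXNIP that is induced by glucose, was at 38.2, 25.2 and 30.6 CPM against 17.9, 15.2 and 20.7 CPM, and it lost its call without control replicate 1 (-0.64) or 3 (-0.80) or low glucose replicate 1 (-0.79) or 2 (-0.69) and in a fit of only the 6 libraries (-0.81). TXNIP itself, at 39.4, 18.1 and 24.7 CPM against 11.7, 6.31 and 15.1 CPM, was non-overlapping and just outside the threshold (-1.31, edgeR adjusted p = 0.0575). In the remaining metabolic lists, the counts of lower genes were 1 of 43 for pyruvate entry and the TCA cycle, 0 of 47 for fatty acids and lipid droplets, 1 of 38 for cholesterol, 1 of 50 for antioxidant enzymes and 0 of 30 for amino acid transport. The highest of these shares was 2.63%, against 2.02% of all tested genes.

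Further genes fell in 6 more lists, several of them with a share near the 2.02% of all tested genes. The share was 2.63% for cholesterol, 3.57% for hypoxia, 2.0% for antioxidant enzymes and 2.04% for the cell cycle. It was 12.5% for imprinted genes and 9.09% for complement. LRP1, a large endocytic receptor of the cholesterol list, was at 196, 90.3 and 106 CPM against 45.3, 27.5 and 28.2 CPM. HIF1A, the oxygen-regulated transcription factor, was at 78.0, 107 and 94.1 CPM against 46.1, 42.7 and 36.9 CPM (-1.15, edgeR adjusted p = 0.00505), and it was the 1 member of 28 hypoxia genes that fell. GSTA1, a glutathione transferase with close copies, was at 16.9, 10.5 and 18.7 CPM against 1.44, 1.41 and 0.831 CPM. GAS1, a membrane protein of growth arrest, was the 1 of 49 cell cycle genes that fell, at 77.8, 91.0 and 93.6 CPM against 19.6, 21.6 and 36.8 CPM. Of 24 imprinted genes 3 were lower, led by PEG10, a paternally expressed placental gene, at 28.0, 20.4 and 22.3 CPM against 5.51, 4.17 and 6.06 CPM. CLU (clusterin), a secreted chaperone, was at 109, 54.9 and 68.1 CPM against 26.5, 22.4 and 33.1 CPM.

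No member of the lists for chromatin enzymes (54 tested), the unfolded protein and integrated stress response (36), cytosolic ribosomal proteins (55) or mitochondrially encoded transcripts (13) passed. With 2.02% of all tested genes lower, lists of these sizes can hold no call without differing from other genes. DNMT1, the maintenance DNA methyltransferase, stood at 35.5, 37.8 and 33.8 CPM against 29.3, 34.2 and 39.7 CPM, and DNMT3A, a de novo methyltransferase, at 526, 583 and 606 CPM against 684, 749 and 531 CPM. Ribosomal proteins had a median of 0.18 and lay higher without overlap in 15 of 55, against 4.31% of all tested genes, with RPL13 at 949, 1052 and 1103 CPM against 1209, 1286 and 1233 CPM (0.26, 95% interval 0.02 to 0.50). The mitochondrial transcripts had a median of 0.31 and overlapped between the groups in each of the 13. They took 4.93%, 5.36% and 4.75% of counts in control and 7.93%, 5.61% and 4.41% in low glucose, with low glucose replicate 1 the highest.

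The side of higher genes was thin. C1R, a protease that starts the classical complement pathway, was at 2.62, 4.42 and 2.93 CPM in control and at 6.76, 6.05 and 11.0 CPM in low glucose, higher by 1.25 on the log2 scale (SE 0.285, edgeR adjusted p = 0.0440). The groups were separate, but the call held only without control replicate 2 among the fits that left out a library, the other 5 gave 0.95 to 1.43, and it did not pass in the fit of only the 6 libraries (1.25) or in limma-voom (1.2). Its partner protease C1S did not pass, at 9.66, 11.6 and 6.91 CPM against 10.2, 8.08 and 15.2 CPM (0.25, 95% interval -0.29 to 0.80). The named genes nearest below the threshold were DUSP8, a phosphatase of stress kinases (59.4, 60.3 and 74.1 against 81.7, 85.7 and 98.9 CPM, edgeR adjusted p = 0.119), SLC5A10, a sugar cotransporter (0.622, 0.976 and 0.609 against 3.19, 1.52 and 2.04 CPM, edgeR adjusted p = 0.120), and NKX2-5, a homeobox factor of the heart. FOXJ1, a transcription factor of motile cilia, was nearly absent from control, at 0, 0.0139 and 0 against 0.229, 0.0563 and 0.492 CPM (edgeR adjusted p = 0.141), and ELF3, an epithelial transcription factor, stood at 43.4, 64.7 and 54.4 CPM against 79.1, 71.2 and 92.1 CPM (0.58, edgeR adjusted p = 0.185). None of these overlapped between the groups.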

How the data were processed

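Poly(A) RNA of pooled day 8 blastocysts was sequenced. The authors deposited 1 table of estimated counts per gene (22.5% of values are not whole), and per the submitters' processing notes fastp, kallisto, DESeq2 and the build bosTau9 were used, but neither their versions and roles nor the annotation are given in the sources used here. Reads that fit several transcripts are divided among them by kallisto's estimate, which leaves single members of gene families uncertain. Symbols came from the table for 17706 of 22127 genes and for 323 from RefSeq, and 4098 had none.

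The estimated counts, rounded to whole numbers, were tested with edgeR 4.0.16 (R 4.3.3). The filter filterByExpr, at a minimum count of 10 and a minimum total of 15, left 16469 genes. With TMM scaling and 1 mean per medium over all 9 libraries, the quasi-likelihood test compared low glucose minus control, two-sided, with Benjamini-Hochberg adjustment over all tested genes and a threshold of 0.05. SEs come from the F statistic and intervals are 95%. The common biological coefficient of variation was 0.322. The steps were tested on simulated data. No pair of pools agreed within sampling noise (smallest chi-square per degree of freedom 39.6).

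The 52 gene lists (1899 symbols, 1754 tested), the genes of interest and the design were chosen with earlier results of these data known. Named genes were each higher gene, the lower genes leading by p, by size of fall and by control level, up to 4 lower members and the most abundant member of each list, the 5 genes nearest outside the threshold in each direction, and a set of genes of interest. Genes named outside this rule are marked. A few genes that the rule names are not reported here, though counts over lists and over all genes include them. Alternatives were RLE factors, no filter, a mean count of at least 50, only the 6 libraries, the replicate number as a block, DESeq2 1.42.0, limma-voom (limma 3.58.1) and leaving out each library. Figures were drawn with matplotlib 3.10.9.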

Additional observations from a re-analysis of the deposited data

How the results depend on the processing

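No named gene past the threshold changed direction under any alternative, while several named genes that did not pass, such as SLC2A3, NANOG and LDHA, lay on either side of 0 depending on which library was left out. Against 333 lower genes, RLE factors gave 329, no filter 372, a mean count of at least 50 346, only the 6 libraries 387, limma-voom 346 and DESeq2 548, which held all 333. Leaving out 1 library gave 194 to 269 lower and 0 to 2 higher genes. DESeq2 called 9 genes higher and limma-voom 0. Stromal markers lower were 11 and TGF-beta genes 12 with DESeq2. Without 1 library, the lower members were 2 to 5 for coagulation, 2 to 4 for collagens, 5 to 7 for cumulus markers, 4 to 6 for stromal markers, 3 to 5 for nuclear receptors and 3 to 4 for the insulin and IGF list. The cause of these moves was not tested, and the fits that left out a library also had fewer libraries. All replicate numbers come from the titles. Deviations of same-numbered control and low glucose pools correlated at 0.131, 0.0491 and 0.0417, and those of differently numbered pools at -0.105 to 0.0643. With 3 pools a group these values cannot decide whether the numbers pair the pools. With the replicate block 404 genes were lower and 1 higher, which was not C1R (1.25), and collagens lower were 8. With only the 6 libraries and the block, added after seeing the data, 382 were lower, 5 higher and 8 collagens lower. Each group has 3 pools, and the 4118 genes of lowest control level, up to 1.59 CPM, gave 5 calls, and whether rare transcripts changed less often or were harder to detect was not tested.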

Other observations

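The 3 libraries from low glucose medium with BHB share the control libraries with the comparison above, so their values are set beside it as levels only. The 333 genes lower in low glucose summed to 2951, 3781 and 3461 CPM with BHB, 10564, 8813 and 9858 CPM in control and 3302, 2969 and 2839 CPM in low glucose. MRC2 stood at 44.6, 56.7 and 54.8 CPM with BHB, TSC22D1 at 31.9, 33.9 and 35.5 CPM and LUM at 12.4, 12.4 and 12.1 CPM. MX1 stood at 7.32, 19.9 and 15.7 CPM, ZBP1 at 0.820, 3.94 and 1.64 CPM and IGFBP5 at 49.0, 142 and 108 CPM. C1R stood at 7.48, 6.87 and 6.40 CPM.

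Of the 333 lower genes, 196 are in none of the 52 lists, 8 of them without a symbol.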
